A study of Arabidopsis thaliana with 12 samples.

Results

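The comparison described here sets 29 °C against 22 °C within the libraries labelled rve5-2. It takes in 6 of the 12 libraries of the study, 3 at each temperature, and every gene that passed a filter on low counts, which were 21870 of the 32399 genes listed. The tested libraries came from 5-day-old Arabidopsis thaliana seedlings labelled rve5-2, moved to 29 °C for 12 h. Those at 22 °C came from seedlings with the same label, kept at 22 °C for the same 12 h. Seedlings of both groups had grown at 22 °C with 16 h of light and 8 h of dark a day, and were taken at zeitgeber time 12, which is 12 h after lights on. WT seedlings at 29 °C and at 22 °C, 3 libraries each, had the same age, light and sampling time and are used to show where the 2 warm responses differ. The title of the study names the roles of REVEILLE 5 (RVE5) and of the clock factor CCA1 in the growth of the hypocotyl in warmth.

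Whole seedlings were sequenced from Trizol-extracted RNA with a library kit that does not mark the strand, so reads from genes that overlap on opposite strands cannot be told apart. A lower level in such a sample can come from fewer cells of a type or from less RNA per cell, and these cannot be told apart either. The labels do not say whether the 3 libraries of a group are separate cultures, so the p-values rest on the spread among these libraries, which may be technical. Library totals were 83.4, 65.9 and 76.3 M counts at 29 °C and 73.7, 70.1 and 87.1 M counts at 22 °C. Low counts lay about 3.71 apart, so 1 fragment would stand for about 3.71 counts. Levels are given in CPM, counts scaled to a common library size (counts per M), which are not corrected for gene length. The threshold for a call was 0.05 for the adjusted p of edgeR's quasi-likelihood test, with Benjamini-Hochberg adjustment over all 21870 genes, and each adjusted p below comes from that test unless another setting is named. The SE stands for the error of a log2 fold change, and all fold changes are 29 °C over 22 °C.

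The name rve5-2 is that of an allele of RVE5 (AT4G01280), a relative of CCA1 that lies on chromosome 4 at 535211 to 537322. RVE5 stood at 1420, 1330 and 1250 CPM in the warm libraries labelled rve5-2 and at 1080, 939 and 1020 CPM in the cool ones. WT had 16.7, 13.4 and 15.1 CPM at 29 °C and 14.6, 15.8 and 14.4 CPM at 22 °C. The name is therefore kept as a label only, and no loss of RVE5 transcript is assumed. Within the libraries labelled rve5-2 the 3 warm values lay above the 3 at 22 °C, with a log2 fold change of 0.40 (SE 0.09, adjusted p = 0.00787). Quantile normalization ended the call, as did the root score described below.

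Warmth below the damaging range changes plant growth through a few known routes. PHYTOCHROME INTERACTING FACTOR 4 (PIF4) and its relatives drive hypocotyl elongation through auxin and the small SAUR proteins. Heat shock factors bind heat shock elements and switch on chaperones, which keep other proteins folded. The circadian clock sets the hour at which each gene can respond, with CCA1 and LHY at dawn, the PRR repressors through the day, and the evening complex of ELF3, ELF4 and LUX at dusk. The seedlings were taken late in the light period, when dawn genes are usually low.

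At 29 °C 2848 genes rose (13% of those tested) and 2848 fell (13%), which makes 5696 calls (26%). A change of at least 2-fold was reached by 324 of the genes that rose (1.48% of those tested) and by 946 of those that fell (4.33%). The median log2 fold change over all genes was -0.005. The 3 warm libraries lay above all 3 at 22 °C for 4879 genes (22.3%) and below them for 5087 (23.3%). Rises made up 50% of the calls on counts but 33.2% in limma on log2(FPKM + 1), where 1949 genes rose and 3923 fell. Without the 29 °C library of replicate 2 the calls numbered 1876 higher and 1714 lower. Calls of lower genes came to 1739 without the 22 °C library of replicate 1 and 1669 without the 29 °C library of replicate 1.

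**Figure D1:**
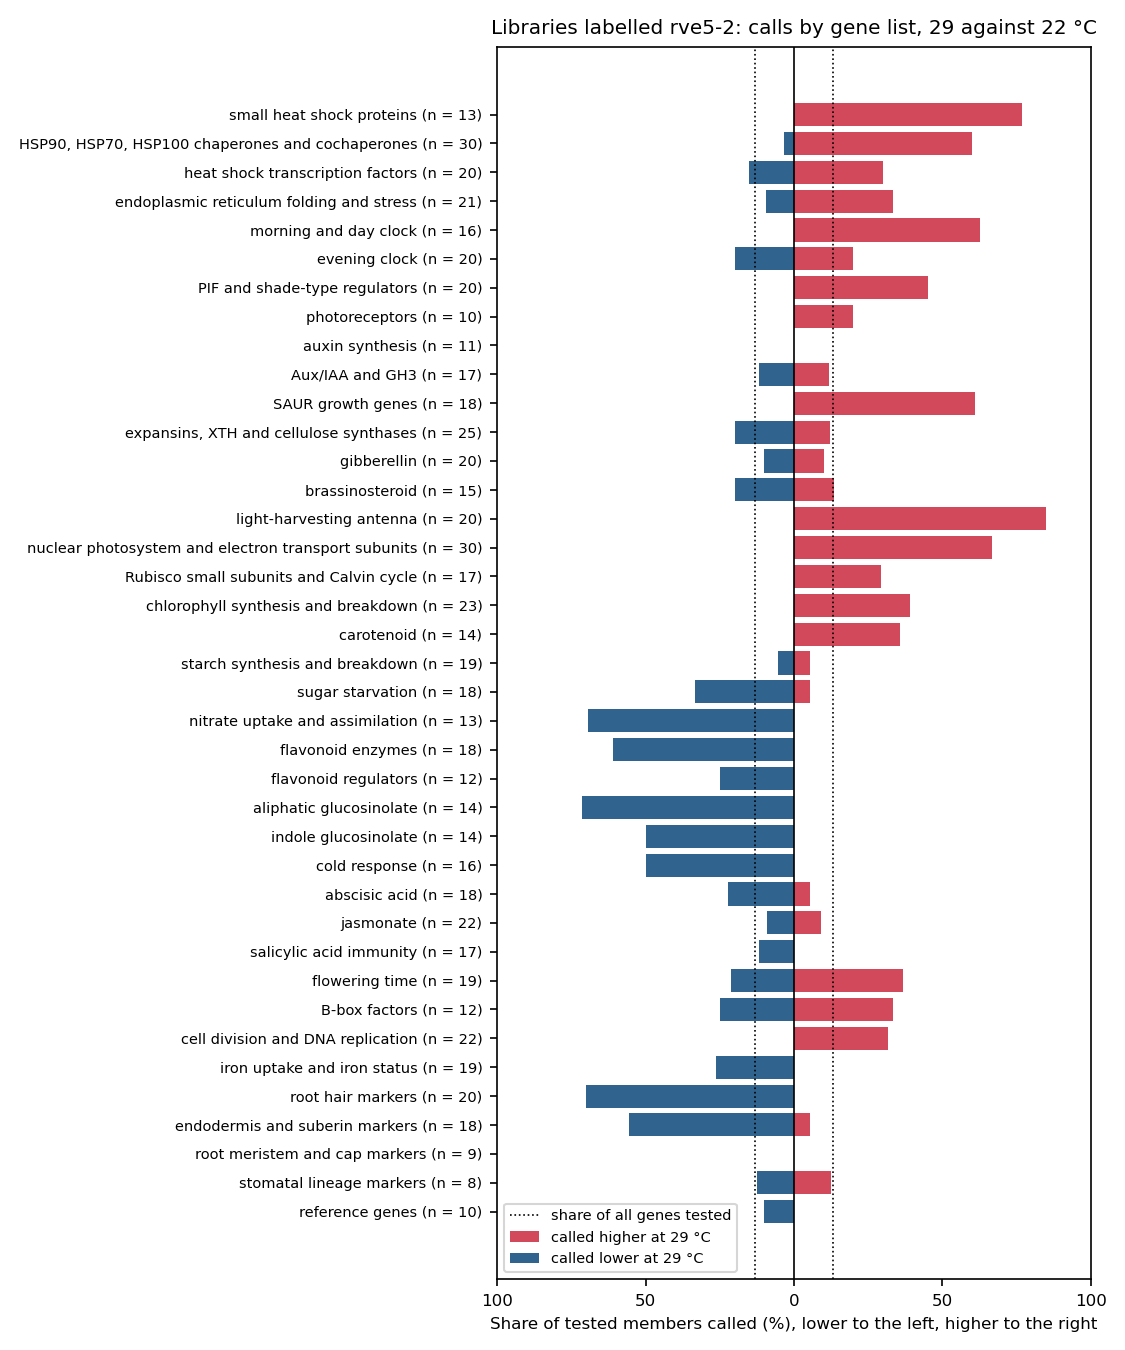
Share of the tested members of each gene list called higher (red, to the right) or lower (blue, to the left) at 29 °C in the libraries labelled rve5-2, in percent, with the number of tested members beside each name. The dotted lines mark the 13% called in each direction over all genes. Small heat shock, morning clock, SAUR and antenna genes reach far to the right, while root hair, nitrate, flavonoid and glucosinolate genes reach far to the left.

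Most markers of root hairs and of the endodermis were lower at 29 °C, so most lists below are also given with a root score, explained next. Of 20 root hair genes 14 fell and none rose, with a median log2 fold change of -2.98. LRX1 (AT1G12040), an extensin of the root hair wall, had 0.569, 0.433 and 0.722 CPM at 29 °C and 9.33, 7.59 and 11.1 CPM at 22 °C. The 2 groups lay far apart, with a log2 fold change of -4.02 (SE 0.42, adjusted p = 8.72e-05). Of 18 genes of the endodermis and of suberin, the waxy barrier of the inner root, 10 fell and FAR1 rose. Without the 29 °C library of replicate 1 only 6 fell, and FAR1 was called neither there nor without 3 other single libraries. CASP1 (AT2G36100), which builds the Casparian strip, had 1.47, 0.849 and 2.98 CPM at 29 °C and 15.2, 13.7 and 12.9 CPM at 22 °C. None of 9 genes of the root tip was called. SCR (AT3G54220), which patterns the root, had 36, 41.5 and 39.3 CPM at 29 °C and 37.5, 36.9 and 35.8 CPM at 22 °C.

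Summed over its list, the root hair level was 14.8, 14 and 28.6 CPM at 29 °C and 137, 119 and 157 CPM at 22 °C. The endodermis list summed to 109, 121 and 130 CPM at 29 °C and to 292, 230 and 296 CPM at 22 °C. The root tip list overlapped between temperatures, at 64.2, 69.6 and 74.1 CPM at 29 °C and 70, 67.9 and 70.7 CPM at 22 °C. For each library the log2(CPM + 0.1) values of the tested genes of these lists were averaged into a root score, which was 0.54 ± 0.45 at 29 °C and 2.41 ± 0.12 at 22 °C (SD, n = 3 each). In WT it was 0.6 ± 0.89 at 29 °C and 2.44 ± 0.38 at 22 °C. The score does not overlap between temperatures in the libraries labelled rve5-2, so temperature and root content or state cannot be told apart by the design. With the score as a covariate 125 genes rose (0.572%) and 94 fell (0.43%), and 197 of the 5696 calls remained. For 530 of the 5696 genes the fitted fold change turned sign. For each called gene the value with the score was divided by that without it, signs kept. The median of these ratios was 1.73 for the SE and 0.655 for the fold change. Medians and calls with the score are given beside the lists. Seed storage genes, which mark unused reserves, were at or near 0 at both temperatures.

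**Figure D2:**
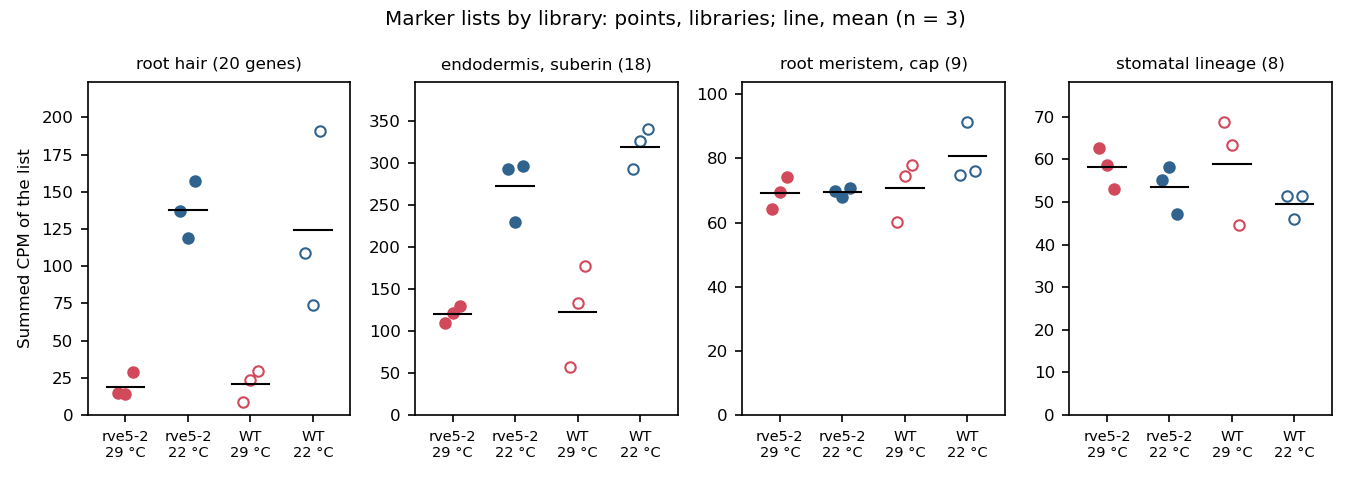
Summed CPM of 4 marker lists in each library, with the mean of 3 libraries as a line. Filled points are the libraries labelled rve5-2 and open points WT, and in each genotype 29 °C stands left of 22 °C. Root hair and endodermis levels are lower in all 6 warm libraries than in any cool one, while levels of the root tip (root meristem, cap) and of the stomatal lineage overlap.

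Chaperone genes were among the most raised at 29 °C. Of 13 tested small heat shock protein genes 10 rose and none fell, with a median log2 fold change of 2.53, while HSP21 stayed below the filter. These proteins hold unfolding proteins until other chaperones refold them. HSP17.4 (AT3G46230, chromosome 3, 16984118 to 16984841) had 3.67, 7.37 and 5.78 CPM at 29 °C and 0, 0.113 and 0.202 CPM at 22 °C. It was close to silent in the cool libraries and present in every warm one, with a log2 fold change of 5.67 (SE 0.67, adjusted p = 0.000185). HSP23.5 (AT5G51440), a small heat shock protein of mitochondria, had the highest level per length of the list at 29 °C, at a mean of 43.7 FPKM, followed by HSP17.6B at 8.18 FPKM. It had 47, 46.3 and 36.1 CPM at 29 °C and 8, 5.35 and 9.09 CPM at 22 °C, and a log2 fold change of 2.53 (SE 0.19). HSP17.6A (AT1G59860) had 5.27, 6.52 and 5.64 CPM at 29 °C and 1.53, 1.06 and 1.2 CPM at 22 °C. The members that were not called were HSP15.7 (0.83, adjusted p = 0.0525), HSP22.0 (3.67, adjusted p = 0.13) and HSP26.5 (-0.30, adjusted p = 0.793). The list's median with the root score was 2.54 and 4 members stayed called. Without the 22 °C library of replicate 1 only 5 members rose, 6 rose without each of 4 other libraries, and 5 rose in the replicate block.

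Of 30 genes for HSP90, HSP70 and HSP100 chaperones and their helpers, 18 rose and 1 fell, with a median of 0.37. The rises were uneven within families. HSP70-4 (AT3G12580), a cytosolic HSP70, had 247, 319 and 285 CPM at 29 °C and 58.8, 41.9 and 77.3 CPM at 22 °C (log2 fold change 2.26, SE 0.19). HSP70-1 (AT5G02500), the major cytosolic HSP70, had 1920, 1760 and 1800 CPM at 29 °C and 2090, 2240 and 1840 CPM at 22 °C, and was not called (adjusted p = 0.174). HSP70-3 (AT3G09440) was the one that fell, by 0.28 on the log2 scale (adjusted p = 0.00851). Of the cytosolic HSP90 genes, HSP90.1 (AT5G52640) had 95.7, 118 and 113 CPM at 29 °C and 21.1, 18.3 and 26.4 CPM at 22 °C. HSP90.2, HSP90.3 and HSP90.4 were not called, with fold changes of -0.03, -0.05 and -0.14, and 18.9 to 24.8% of their 50-base stretches occur elsewhere in the genome. The cochaperone HOP3 (AT4G12400), which links HSP70 to HSP90, had 64.1, 79.3 and 65.1 CPM at 29 °C and 14.2, 11.2 and 14.9 CPM at 22 °C (log2 fold change 2.37, SE 0.12, adjusted p = 7.55e-07). Its relatives HOP1 and HOP2 were not called (-0.11 and 0.08). HSP101 (AT1G74310), the disaggregase needed for acquired heat tolerance, rose by 0.88 (SE 0.11). HSA32, which keeps that tolerance, had 6, 7.29 and 5.78 CPM at 29 °C and 2.57, 2.92 and 1.75 CPM at 22 °C, and was called (adjusted p = 0.00114). The list's median with the root score was 0.40, and HSP90.1, HSP70-4, ROF2 and HOP3 stayed called.

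Among 20 genes for heat shock factors and related regulators 6 rose and 3 fell, beside 13% of all genes in each direction. HSFA2 (AT2G26150, chromosome 2, 11135682 to 11137396), a factor that extends heat tolerance, had 8.82, 8.48 and 7.52 CPM at 29 °C and 2.64, 2.69 and 3.56 CPM at 22 °C. The groups were clearly apart, with a log2 fold change of 1.48 (SE 0.15, adjusted p = 7.77e-05). The largest rise of the list was that of MBF1C, a coactivator of the heat response, at 2.25 (adjusted p = 3.12e-06). HSFA3 (AT5G03720) rose by 1.29 (SE 0.18), HSFB2A by 0.99 and HSFB2B by 0.60. The HSFA1 genes, whose products start the heat response and are known to be set free from chaperones as proteins, were not called, at -0.12 to 0.08. HSFA6B, which acts in the abscisic acid response, fell by 1.55 (SE 0.28), HSFC1 by 0.92 and HSFA4A by 0.54. HSFC1 is overlapped by another gene over 78.7% of its length, and the call of HSFA4A ended without the 29 °C library of replicate 2 or the 22 °C library of replicate 3. The median of the factors was -0.08, and 0.58 with the root score, when HSFA2, HSFB2B and MBF1C stayed called. Of 21 genes for folding in the endoplasmic reticulum 7 rose and 2 fell, beside the same 13%, with a median of 0.14. The largest of these rises was ERDJ3A, an HSP40 helper, at 1.21 (SE 0.18), while the stress sensor gene IRE1A fell by 0.63. The stress factor genes BZIP60, BZIP17 and BZIP28 were not called, at -0.18, 0.00 and 0.04. None of the endoplasmic reticulum genes was called with the root score (median 0.16).

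The heat shock element is shown because chaperone genes led the rises. It was searched on both strands, in either phase of its 3 alternating units, in a window from 250 bases before to 50 bases after the gene start of the RefSeq annotation of TAIR10.1. It stood in 13 of 321 windows of genes that rose at least 2-fold (4.05%), in 3 of 944 of genes that fell at least 2-fold (0.318%), and in 119 of 21789 in all (0.546%). Among called genes of any fold change the shares lay closer together. The element stood in 22 of 2842 windows of genes that rose (0.774%) and in 12 of 2845 of those that fell (0.422%). Of the 13 small heat shock genes 2 had it. The 250 bases before the start are printed for HSP17.4 and HSFA2, and for the clock repressor gene PRR7, with the element in capitals. A match is a description of letters and not a shown site.
HSP17.4 (chr3:16984868-16985117, minus strand): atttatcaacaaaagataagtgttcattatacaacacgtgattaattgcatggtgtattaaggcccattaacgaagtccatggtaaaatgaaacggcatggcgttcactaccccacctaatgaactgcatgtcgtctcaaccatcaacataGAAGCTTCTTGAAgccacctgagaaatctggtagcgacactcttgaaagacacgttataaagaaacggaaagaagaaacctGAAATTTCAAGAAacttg
HSFA2 (chr2:11135374-11135623, plus strand): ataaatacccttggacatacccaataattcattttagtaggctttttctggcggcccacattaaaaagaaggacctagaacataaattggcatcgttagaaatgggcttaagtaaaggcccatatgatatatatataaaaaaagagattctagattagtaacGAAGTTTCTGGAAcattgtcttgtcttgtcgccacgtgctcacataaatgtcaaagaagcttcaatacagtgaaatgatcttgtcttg
PRR7 (chr5:642031-642280, minus strand): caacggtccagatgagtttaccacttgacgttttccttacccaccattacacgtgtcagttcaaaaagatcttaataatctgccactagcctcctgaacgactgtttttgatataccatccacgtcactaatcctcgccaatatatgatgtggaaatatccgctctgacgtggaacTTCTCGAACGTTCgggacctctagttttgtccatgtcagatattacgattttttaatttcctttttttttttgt

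**Figure D3:**
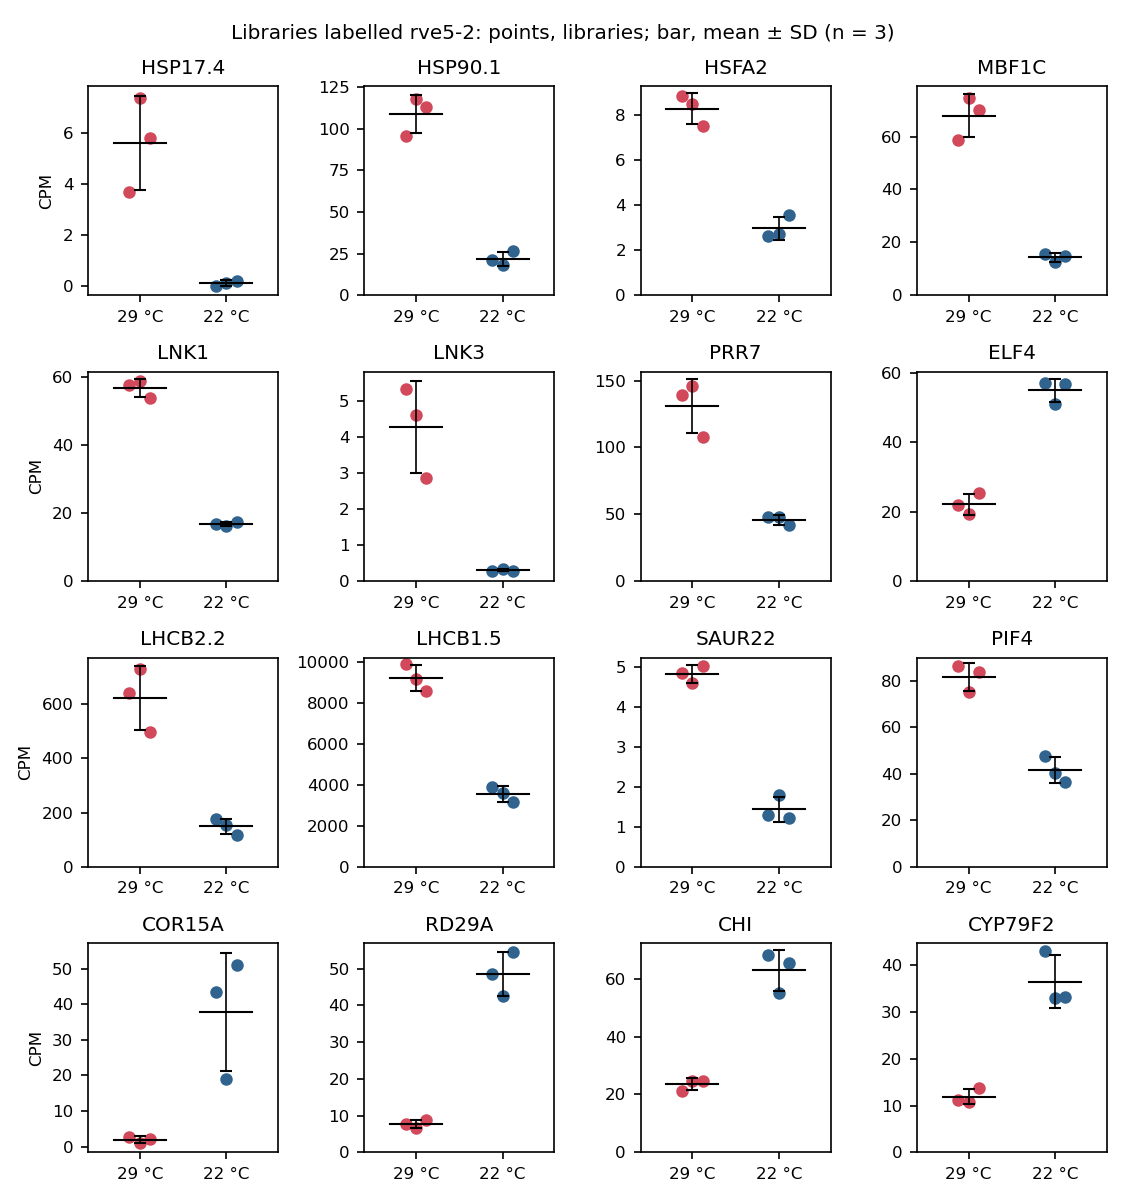
CPM of 16 genes in the libraries labelled rve5-2, with 29 °C (red) left of 22 °C (blue) in each panel. Points are libraries, and the bar with its whiskers is the mean ± SD (n = 3). The groups do not overlap in any panel, and ELF4, COR15A, RD29A, CHI and CYP79F2 are the ones lower at 29 °C.

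Most clock genes of the morning and day list were raised. Of 16 members 10 rose and none fell, with a median log2 fold change of 1.42. RVE5, described above, is counted among these 10. The LNK proteins are coactivators that work with RVE8-type factors, and all 4 LNK genes rose. LNK2 (AT3G54500) had 51.1, 45.5 and 28.7 CPM at 29 °C and 11.1, 11.8 and 6.29 CPM at 22 °C. LNK3 (AT3G12320, chromosome 3, 3923735 to 3925465) had 5.35, 4.63 and 2.86 CPM at 29 °C and 0.258, 0.312 and 0.28 CPM at 22 °C. LNK4 (AT5G06980) had 11.9, 10.4 and 5.55 CPM at 29 °C and 1.09, 1.8 and 0.247 CPM at 22 °C. In each gene the groups were apart and the 29 °C library of replicate 3 was the lowest of the warm ones. Their log2 fold changes were 2.1 (SE 0.25), 3.91 (SE 0.97) and 3.16 (SE 0.61), beside 1.77 (SE 0.12) for LNK1.

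PRR7 (AT5G02810, chromosome 5, 637897 to 641977), a repressor of CCA1 and LHY, had 139, 146 and 108 CPM at 29 °C and 47.6, 47.8 and 41.6 CPM at 22 °C. PRR9 (AT2G46790), which acts before PRR7 in the day, had 2.81, 3.11 and 1.95 CPM at 29 °C and 0.747, 0.297 and 0.235 CPM at 22 °C. PRR9 was low in all 6 libraries, and 41.1% of its 50-base stretches occur elsewhere. The fold changes were 1.52 (SE 0.12) for PRR7 and 2.62 (SE 0.57) for PRR9. CCA1 had 2.77, 3.01 and 1.68 CPM at 29 °C and 0.734, 0.751 and 1.13 CPM at 22 °C. Its groups were apart, but at 1.51 (SE 0.53, adjusted p = 0.0523) it was not called. Other settings called it, among them DESeq2 (adjusted p = 0.0199), quantile normalization (0.0307), counts divided by their step (0.0337), log2(FPKM + 1) (0.0129), log2(FPKM + 0.1) (0.0466) and the 6 libraries alone (0.0139). It was also called without the 29 °C library of replicate 3 (0.0485), but not in the replicate block (0.128) nor with the root score (0.942). LHY had 2.15, 0.946 and 0.423 CPM at 29 °C and 1.17, 1.29 and 1.65 CPM at 22 °C, which overlap. Of the other REVEILLE genes RVE4 rose by 0.58 and RVE7 by 1.33, and 58.8% of the stretches of RVE7 are found elsewhere. RVE3 had 0, 0.272 and 0.463 CPM at 29 °C against 0 in all 3 libraries at 22 °C, and was called. Set against a floor of 3 fragments over the group, its pooled warm level was at least 4.69-fold higher. This rests on few reads in 2 of the 3 warm libraries, as the other was at 0 like all the cool ones, so the groups overlap. The list's median with the root score was 1.26, and LNK1, PRR7 and RVE7 stayed called.

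Evening genes had no common direction. Of 20 members 4 rose and 4 fell, beside 13% of all genes in each direction, with a median of -0.09. Of the evening complex, ELF4 (AT2G40080) had 21.9, 19.2 and 25.3 CPM at 29 °C and 57.1, 51.1 and 56.8 CPM at 22 °C. LUX (AT3G46640, chromosome 3, 17183090 to 17185218) had 83.8, 74.4 and 88.2 CPM at 29 °C and 59.1, 58.8 and 53.7 CPM at 22 °C. ELF3 had 94.1, 93.8 and 81.6 CPM at 29 °C and 89.1, 88.7 and 83.8 CPM at 22 °C. ELF4 was thus lower, LUX higher and ELF3 overlapping, with log2 fold changes of -1.31 (SE 0.11), 0.52 (SE 0.074) and 0.04 (SE 0.084). FKF1 (AT1G68050, chromosome 1, 25508676 to 25510889), a blue-light receptor of the photoperiod pathway, had 32, 31.1 and 34.5 CPM at 29 °C and 41.8, 43.6 and 42.2 CPM at 22 °C. It fell by 0.39 (SE 0.10), a call that ended without the 29 °C library of replicate 1 or of replicate 2. The RNA-binding protein gene GRP7 fell by 0.30 and the demethylase gene JMJD5 by 0.35, while CHE rose by 0.63 and LWD1 by 0.36. TOC1 and PRR5, which close the series of PRR genes, were not called, at -0.13 (adjusted p = 0.211) and -0.20 (adjusted p = 0.214). Of the evening list 1 member fell when either of these 2 libraries was left out, and 2 fell without the 22 °C library of replicate 1 or of replicate 3. On FPKM, at either pseudocount, 8 fell. The list's median with the root score was -0.15, and ELF4, FKF1 and LUX stayed called.

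Of the 20 evening genes 11 had the evening element AAAATATCT in the window around their start (55%), against 645 of all 21789 (2.96%). Over all genes with the element 117 of 645 fell (18.1%) and 75 rose (11.6%). Among those without it 12.9% fell and 13.1% rose. Of the 16 morning genes 12 had the G-box CACGTG (75%), against 1858 of 21789 in all (8.53%). The G-box stood in 322 of 2842 windows of genes that rose (11.3%) and in 231 of 2845 of those that fell (8.12%). The bases before the start are shown for LNK3 with its G-boxes in capitals, and for LUX, which rose, and FKF1, which fell, with the evening element in capitals. LUX and FKF1 share the element and moved in opposite directions.
LNK3 (chr3:3923265-3923514, plus strand): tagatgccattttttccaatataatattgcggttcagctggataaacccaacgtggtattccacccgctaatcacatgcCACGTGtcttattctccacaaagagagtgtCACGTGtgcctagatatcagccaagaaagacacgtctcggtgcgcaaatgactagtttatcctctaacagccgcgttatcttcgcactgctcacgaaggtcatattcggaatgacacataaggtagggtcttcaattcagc
LUX (chr3:17182792-17183041, plus strand): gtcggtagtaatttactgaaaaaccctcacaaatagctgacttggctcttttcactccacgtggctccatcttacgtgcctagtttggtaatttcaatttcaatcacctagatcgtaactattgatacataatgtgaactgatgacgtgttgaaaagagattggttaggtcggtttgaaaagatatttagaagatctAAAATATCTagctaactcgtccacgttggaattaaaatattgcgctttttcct
FKF1 (chr1:25508389-25508638, plus strand): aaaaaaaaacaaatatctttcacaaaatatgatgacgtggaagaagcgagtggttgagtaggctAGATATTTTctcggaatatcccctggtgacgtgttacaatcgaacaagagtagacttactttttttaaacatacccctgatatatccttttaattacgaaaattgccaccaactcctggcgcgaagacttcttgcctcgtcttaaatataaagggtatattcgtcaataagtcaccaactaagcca

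Growth regulators of the PIF and shade type tended upwards, with 9 of 20 raised, none lowered and a median of 0.43. PIF4 (AT2G43010) had 86.1, 75 and 83.6 CPM at 29 °C and 47.8, 40.4 and 36.6 CPM at 22 °C (log2 fold change 0.97, SE 0.14, adjusted p = 0.000575). PIF5 (AT3G59060), a close relative, had 67.6, 51.4 and 51.4 CPM at 29 °C and 22.1, 28 and 18.6 CPM at 22 °C (1.31, SE 0.18). PIF1, PIF3 and PIF7 were not called, at -0.02, -0.02 and 0.25. HFR1, which restrains PIF proteins, rose by 1.62 (SE 0.27), and the shade-response homeobox gene ATHB2 by 1.25 (SE 0.17). HFR1 had 10.7, 12 and 16.5 CPM at 29 °C and 4.5, 3.84 and 4.43 CPM at 22 °C. Of 10 photoreceptor genes PHYC rose by 0.29 and CRY1 by 0.30, while PHYB was not called (0.03, SE 0.066). Only 1 photoreceptor gene rose on FPKM, or when any single 22 °C library or the 29 °C library of replicate 1 was left out. In DESeq2 3 rose. Over all genes 13% rose. None of the photoreceptor genes was called with the root score, at a median of 0.02 without it and -0.05 with it. The PIF list had a median of 0.30 with the root score and no member called.

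SAUR genes, which code for small auxin-induced proteins that promote cell elongation, had 11 of 18 members raised and none lowered, with a median of 1.07. The list holds the SAUR19 cluster of chromosome 5, the SAUR61 cluster of chromosome 1 and 4 genes of chromosome 4. SAUR22 (AT5G18050) had 4.84, 4.6 and 5.03 CPM at 29 °C and 1.29, 1.8 and 1.22 CPM at 22 °C. SAUR20 (AT5G18020) had 8.17, 8.65 and 8.38 CPM at 29 °C and 4.31, 3.27 and 3.65 CPM at 22 °C. In both genes the groups were apart, with log2 fold changes of 1.75 (SE 0.30) and 1.17 (SE 0.17). SAUR62, SAUR63 and SAUR67 share 23.2 to 33.9% of their stretches with other places in the genome. The median with the root score was 1.02, but no SAUR gene stayed called.

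None of 11 auxin synthesis genes was called, with log2 fold changes from -1.59 to 1 and a median of -0.13, or 0.50 with the root score. YUC8 (AT4G28720), a flavin monooxygenase of the last step, had 3.37, 5.48 and 4.42 CPM at 29 °C and 3.29, 1.83 and 1.51 CPM at 22 °C. Its groups were apart, but it was not called (log2 fold change 1, SE 0.35, adjusted p = 0.0545). It was called by DESeq2 (adjusted p = 0.0294), with quantile normalization (0.0172), on counts divided by their step (0.0492), in the 6 libraries alone (0.0443) and without the 22 °C library of replicate 1 (0.022). It was not called on log2(FPKM + 1) (0.0558), in the replicate block (0.0629) or with the root score (0.249). TAA1, which makes the precursor, stood at -0.38 (adjusted p = 0.0507). Of 17 Aux/IAA and GH3 genes IAA7 rose by 0.43 and IAA3 by 0.35, while GH3.1 fell by 1.76 and GH3.17, which binds auxin to glutamate, by 0.72. Over all genes 13% were called in each direction. The early auxin marker IAA19 had 5, 4.73 and 5.06 CPM at 29 °C and 3.33, 5.89 and 3.59 CPM at 22 °C, and was not called. The Aux/IAA and GH3 list had a median of -0.06, and of 0.25 with no call with the root score.

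Of all genes 13% rose and 13% fell, and calls among wall, gibberellin and brassinosteroid genes are to be read beside those shares. Of 25 wall genes 3 rose and 5 fell. The wall enzyme gene XTH16 rose by 0.93, XTH9 by 0.48 and EXPA6 by 0.30. The primary wall cellulose synthase genes CESA1, CESA3 and CESA6 fell by 0.53, 0.57 and 0.36. XTH18 (AT4G30280) averaged 5.1 ± 0.819 CPM at 29 °C and 15.1 ± 3.25 CPM at 22 °C (SD, n = 3 each), a log2 fold change of -1.56 (SE 0.24). With the root score XTH18 stood at -0.53 and none of the wall genes was called. Gibberellin genes had 2 rises and 2 falls among 20. GA3OX2, of the last step to active gibberellin, had 1.65, 2.92 and 3.52 CPM at 29 °C and 12.6, 7.75 and 12.3 CPM at 22 °C, a fall of 2.02 (SE 0.32). GA2OX2, which breaks gibberellin down, rose by 0.96, and the DELLA repressor gene RGL2 by 0.89. Among 15 brassinosteroid genes 2 rose and 3 fell. None of them rose on FPKM or without the 29 °C library of replicate 1, the 22 °C library of replicate 1 or that of replicate 3. ROT3 fell by 1.26 (SE 0.20) and its partner CYP90D1 by 0.82, while CPD rose by 0.28. The root score left no call in either list, at medians of 0.08 for gibberellin and 0 for brassinosteroid genes.

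Photosynthesis genes were raised, most of all those of the light-harvesting antenna, the chlorophyll-binding proteins that feed the photosystems. Of 20 antenna genes 17 rose and none fell, with a median of 0.78. LHCB2.2 (AT2G05070, chromosome 2, 1799234 to 1800392) had 642, 731 and 497 CPM at 29 °C and 175, 153 and 118 CPM at 22 °C (log2 fold change 2.07, SE 0.18, adjusted p = 2.68e-05). LHCB1.5 (AT2G34420) had 9880, 9170 and 8600 CPM at 29 °C and 3900, 3580 and 3150 CPM at 22 °C (1.38, SE 0.11). LHCB1.3 (AT1G29930), the member with the highest level per length at 29 °C (a mean of 10200 FPKM), had 12600, 11900 and 10400 CPM at 29 °C and 12400, 12400 and 11900 CPM at 22 °C. It overlapped and was not called (-0.08, adjusted p = 0.697), nor was LHCB1.2 (0.13). The antenna genes were thus not raised by a common factor, and the near-identical LHCB1 and LHCB2 copies share 10.6 to 29.5% of their stretches with other places. LHCB4.2, without such stretches, had 1180, 1150 and 971 CPM at 29 °C and 439, 396 and 324 CPM at 22 °C (1.51, SE 0.13). Of the photosystem I antenna LHCA1 rose by 1.39 and LHCA4 by 1.26. The median with the root score was 0.47, and LHCB1.5, LHCB2.1, LHCB2.2 and LHCB4.2 stayed called.

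The other photosynthesis lists moved less. Of 30 nuclear genes for photosystem and electron transport subunits 20 rose and none fell, with a median of 0.41. PETE1, a plastocyanin gene, had 215, 219 and 211 CPM at 29 °C and 116, 102 and 114 CPM at 22 °C (0.96, SE 0.10), and PSAD2 rose by 1.05. With the root score this list's median was 0.04 and none was called. Of 17 Rubisco and Calvin cycle genes 5 rose, among them that of Rubisco activase (RCA) by 0.77, while the main small subunit gene RBCS1A was not called (0.09). Of 23 chlorophyll genes 9 rose and none fell. CRD1, of the ring closure step, had 1140, 1260 and 975 CPM at 29 °C and 610, 583 and 499 CPM at 22 °C (1, SE 0.13). Medians of the Rubisco and chlorophyll lists were 0.26 and 0.23, and with the root score -0.12 and -0.06, with no call in either. Quantile normalization gave 10 photosystem genes higher and 2 lower (median 0.12), and 1 Rubisco and Calvin cycle gene higher and 2 lower (median 0), while on FPKM 3 of that list rose and 1 fell. In the 6 libraries alone 11 Rubisco and Calvin cycle genes rose, and 3 without the 22 °C library of replicate 3. Without the 29 °C library of replicate 1 only 12 photosystem genes and 4 chlorophyll genes rose. The counts were also 12 and 4 without the 22 °C library of replicate 3, 12 and 5 without the 29 °C library of replicate 2, and 13 and 4 without the 22 °C library of replicate 2.

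Of 14 carotenoid genes 5 rose. BCH2 (AT5G52570), a beta-carotene hydroxylase, had 4.72, 6.3 and 3.09 CPM at 29 °C and 0.163, 0.453 and 0.168 CPM at 22 °C. It changed most in the list, at 4.17 (SE 0.56, adjusted p = 0.000431), while its paralog BCH1 rose by 0.60. The root score ended the call of BCH2 (4, adjusted p = 0.0733), took the list's median of 0.28 to -0.07 and left VDE, a violaxanthin de-epoxidase gene not called before, as the one called gene, at -0.73. In the 6 libraries alone 9 carotenoid genes rose. Starch genes had 1 rise and 1 fall among 19, beside 13% of all genes in each direction. They had 5 falls on FPKM, with quantile normalization or in the 6 libraries alone, and 3 in DESeq2. Their median was -0.11, and -0.38 with the root score, when none was called. GBSS1, which makes amylose, had 7.85, 11.3 and 6.92 CPM at 29 °C and 1.97, 2.79 and 2 CPM at 22 °C, a log2 fold change of 1.95 (SE 0.31).

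Cold-response genes were lower at 29 °C, with 8 of 16 lowered, none raised and a median of -1.36. RD29A (AT5G52310, chromosome 5, 21240849 to 21243613), a protective protein of cold and drought, had 7.74, 6.55 and 8.93 CPM at 29 °C and 48.4, 42.5 and 54.5 CPM at 22 °C (-2.64, SE 0.18, adjusted p = 5.4e-06). COR15A (AT2G42540, chromosome 2, 17711032 to 17712330), which protects chloroplast membranes, had 2.78, 1.01 and 2.06 CPM at 29 °C and 43.4, 19.1 and 50.9 CPM at 22 °C (-4.26, SE 0.67). All warm values lay below all cool ones, and the cool COR15A values spread widely. KIN1 had 0.336, 0.24 and 1.61 CPM at 29 °C and 11, 6.39 and 9.75 CPM at 22 °C. The activator genes CBF1, CBF2 and CBF3 lay at or under 1.91 CPM in all 6 libraries, and none was called. With the root score the median was -0.43, and COR15A, COR15B and RD29A stayed called. LTI30, at -2.82 as measured, stood at -0.46 with the score.

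CBF proteins bind the letters CCGAC, the drought and cold element, which stood in 6 of the 16 cold-response windows (37.5%) against 3463 of 21789 in all (15.9%). The letters are short and common, and 13.2% of the genes that hold them fell, as did 13% of those without. The 250 bases before RD29A and COR15A are shown because these genes fell most clearly, with the element on either strand in capitals.
RD29A (chr5:21240467-21240716, plus strand): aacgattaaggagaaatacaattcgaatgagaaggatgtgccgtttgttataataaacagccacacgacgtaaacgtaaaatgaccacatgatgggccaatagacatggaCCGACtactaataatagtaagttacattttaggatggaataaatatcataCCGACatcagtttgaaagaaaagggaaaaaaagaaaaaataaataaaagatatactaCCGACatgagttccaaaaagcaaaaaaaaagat
COR15A (chr2:17712331-17712580, minus strand): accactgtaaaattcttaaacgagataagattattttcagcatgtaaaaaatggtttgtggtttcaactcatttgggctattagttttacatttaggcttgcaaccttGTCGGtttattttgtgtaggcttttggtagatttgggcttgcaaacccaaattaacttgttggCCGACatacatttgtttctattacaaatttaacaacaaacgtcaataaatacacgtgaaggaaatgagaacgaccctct

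Genes of flavonoid synthesis were lower at 29 °C. Of 18 enzyme genes 11 fell and none rose, with a median of -0.90, and all 18 had negative fold changes. CHI (AT3G55120, chromosome 3, 20430114 to 20431470), chalcone isomerase, had 21.1, 24.7 and 24.6 CPM at 29 °C and 68, 54.9 and 65.5 CPM at 22 °C (-1.42, SE 0.16, adjusted p = 0.000156). FLS1, flavonol synthase, had 31, 30.5 and 34.6 CPM at 29 °C and 126, 92.8 and 114 CPM at 22 °C (-1.79, SE 0.28). CHS, the entry enzyme, fell by 1.38. The late anthocyanin genes DFR and LDOX had fold changes of -0.71 and -0.98 and were not called. Of the regulators MYB12, which activates flavonol genes, was lower at 29 °C, at -1.5 (SE 0.50, adjusted p = 0.0427). It was no longer called whichever library of the 2 groups was left out. The enzyme list's median with the root score was -0.25, with none called, and MYB12 then stood at 0.88.

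Glucosinolates are defence compounds of the cabbage order, built from methionine (aliphatic) or tryptophan (indole). Of 14 aliphatic genes 10 fell and of 14 indole genes 7 fell, and none rose, with medians of -0.68 and -0.73. CYP79F2 (AT1G16400, chromosome 1, 5605159 to 5607473) had 11.3, 10.7 and 13.7 CPM at 29 °C and 43.1, 33.1 and 33.3 CPM at 22 °C (-1.62, SE 0.15, adjusted p = 3e-05). MAM3, of methionine chain elongation, had 9.42, 15.4 and 16.9 CPM at 29 °C and 80.8, 51.6 and 75.9 CPM at 22 °C (-2.32, SE 0.36). The regulator MYB28 fell by 0.46, while MYB29, MYB34 and MYB51 were not called. On the indole side CYP79B2 had 25.6, 28 and 31.1 CPM at 29 °C and 64.5, 59.4 and 60.8 CPM at 22 °C (-1.13, SE 0.11). SUR1, which serves both branches, fell by 0.72 (SE 0.071). With the root score the medians were -0.75 and -0.44. CYP79F2, CYP79B2 and SUR1 stayed called, while MAM3 stood at -0.72 and did not.

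Nitrate genes fell, with 9 of 13 lowered and none raised. The transceptor gene NRT1.1 had 92.1, 124 and 131 CPM at 29 °C and 248, 167 and 249 CPM at 22 °C (-0.94, SE 0.17). NRT2.1, the high-affinity transporter gene of roots, had 0.103, 0.833 and 0.682 CPM at 29 °C and 4.16, 2.76 and 3.59 CPM at 22 °C. NIA1, a nitrate reductase gene, fell by 0.96, while NIA2 overlapped (0.05, adjusted p = 0.783). The repressor genes LBD38 and LBD39 fell by 1.01 and 0.47. The list's median was -0.47, and -0.35 with the root score, when none was called. Of 18 sugar-starvation genes 6 fell and 1 rose, TPS5 falling by 0.71 and BT2 by 0.91. Their median was -0.33, and -0.07 with the root score, when none was called. Of 19 iron genes 5 fell, among them the proton pump gene AHA2, which had 307, 387 and 499 CPM at 29 °C and 843, 667 and 1010 CPM at 22 °C. The iron transporter gene IRT1 had 7.59, 17.9 and 31.2 CPM at 29 °C and 39.4, 69.3 and 137 CPM at 22 °C and was not called (adjusted p = 0.115). AHA2 stood at -1.08 as measured and at -0.08 with the root score. The median of the iron list was also -1.08 and turned to 1.28 with the score, when no gene was lower and BHLH38, a factor gene of the iron response, was higher. In the 6 libraries alone 9 iron genes fell.

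B-box factors, zinc finger proteins of light signalling, split by member. Of 12, BBX18, BBX24, BBX25 and BBX28 rose and BBX20, BBX21 and BBX22 fell. BBX24 (AT1G06040) had 166, 182 and 179 CPM at 29 °C and 86.6, 79.8 and 77.8 CPM at 22 °C (1.11, SE 0.082, adjusted p = 1.09e-05). BBX21 had 32, 39.6 and 34.9 CPM at 29 °C and 67.5, 56.5 and 57.5 CPM at 22 °C (-0.77, SE 0.15). BBX24 and BBX25, known as repressors of light responses, stayed called with the root score, and the activator gene BBX21 did not.

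Of 19 flowering genes 7 rose and 4 fell. FT (AT1G65480), the mobile flowering signal, was at 0 in all 3 libraries at 29 °C and at 0.421, 0.552 and 0.314 CPM at 22 °C. Set against a floor of 3 fragments over the group it was at least 8.6-fold lower at 29 °C, from very few reads. CO, the activator of FT, was not called (-0.79, adjusted p = 0.0918). The CO-like gene COL5 (AT5G57660) had 59.7, 52.7 and 59.7 CPM at 29 °C and 26.9, 26.1 and 25 CPM at 22 °C (1.14, SE 0.073, adjusted p = 3.33e-06). CDF1, CDF3 and CDF5, repressors of CO and FT, rose by 0.79, 1.08 and 1.43, and the repressor gene SVP by 0.47, while FLM fell by 0.41. CDF5 is overlapped by another gene over 59.1% of its length, so its reads may be in part those of that gene. FT and COL5 stayed called with the root score, when the list's median was 0.08 (0.18 without it). On FPKM 7 flowering genes fell.

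Of the stress hormone lists, that of abscisic acid had 5 of 18 genes called, beside the 26% of all genes. HAB1 rose and 4 genes fell, among them the phosphatase gene ABI1 by 0.80. The falls came to 1 without the 29 °C library of replicate 1 or of replicate 2 or the 22 °C library of replicate 1 or of replicate 3, to 2 in the replicate block and with quantile normalization, and to 7 in the 6 libraries alone. The median was -0.58, and -0.28 with no call with the root score. Of 22 jasmonate genes the repressor genes JAZ1 and JAZ3 fell by 1.67 and 0.87 and JAZ9 and COI1 rose by 0.39 and 0.28. No jasmonate gene rose on FPKM or without the 29 °C library of replicate 1, while 4 rose in DESeq2. Over all genes 13% were called in each direction. With the root score none of the jasmonate genes was called (median -0.04). Of 17 tested salicylic acid genes PR5 and EDS5 fell, where 13% of all genes did. PR5 had 0.75, 0.401 and 0.313 CPM at 29 °C and 3.33, 4.63 and 3.27 CPM at 22 °C (-2.93, SE 0.43), and stayed called with the root score. Of 22 genes of cell division and replication 7 rose and none fell, by 0.26 to 0.47, among them CYCD3;1 by 0.47 and PCNA2 by 0.47. The number of division genes that rose came to 4 without the 29 °C library of replicate 3 or the 22 °C library of replicate 1, to 2 on FPKM and to 0 with the root score (median 0.20, and 0.18 with the score). Of 8 stomatal lineage genes STOMAGEN rose by 0.70 and FAMA fell by 1.05, beside 13% of all genes in each direction. The other 6 were not called. None of this list fell without the replicate 2 library of either temperature, and none was called with the root score. Of 10 genes often used as reference GAPC1 fell by 0.44, and none of the other 9 was called.

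The 12 largest rises and the 12 largest falls among called genes with groups apart and at least 1 CPM include HSP17.4, LNK3, LNK4 and BCH2, described above, and the small heat shock genes HSP17.6 and HSP17.6C. AT3G55240, annotated as a plant protein of unknown function, had 19.1, 22.8 and 10.4 CPM at 29 °C and 0.666, 1.8 and 1.54 CPM at 22 °C (3.70, SE 0.60, adjusted p = 0.00122). The CONSTANS-like B-box gene BBX16 (AT1G73870) had 5.39, 10.9 and 3.19 CPM at 29 °C and 0.353, 0.0992 and 0 CPM at 22 °C. AT1G72660, annotated as a nucleoside triphosphate hydrolase, had 7.18, 7.08 and 4.81 CPM at 29 °C and 0, 0 and 0.359 CPM at 22 °C. In the cool libraries BBX16 and AT1G72660 were near 0, while AT3G55240 was low but present in all 3. AT1G55980 had 6.28, 6.01 and 6.6 CPM at 29 °C and 0, 0 and 0.0448 CPM at 22 °C, but 77.1% of its stretches occur elsewhere and DESeq2 did not call it. AT5G61228, annotated as a conserved upstream reading frame, had 8, 3.86 and 3.84 CPM at 29 °C and 0.0136, 0.708 and 1.45 CPM at 22 °C. Another gene, AT5G61230, overlaps it over 100% of its length, so its counts may not be its own. AT1G12805, annotated as nucleotide binding, had 0.866, 2.29 and 0.736 CPM at 29 °C and 0.109, 0.085 and 0.191 CPM at 22 °C. Of the largest falls RHS14, a root hair gene, had no reads at 29 °C and 2.43, 1.93 and 1.37 CPM at 22 °C, at least 38.4-fold lower against the floor. GH9B15, a glycosyl hydrolase, likewise had none at 29 °C and was at least 32.6-fold lower. PPa3, a pyrophosphorylase gene, also had none and was at least 24.6-fold lower. PRP1, a proline-rich protein of the root hair list, had 0.44, 0.353 and 0.736 CPM at 29 °C and 14.8, 12.8 and 13.7 CPM at 22 °C. GSTU4, AT5G51270, AT2G47530, CSLB06, PRB1, AT5G15180 and TH7 were at or under 0.191 CPM in each library at 29 °C and between 0.435 and 3.95 CPM at 22 °C. The level of SAC51 was high in 1 library, with 17.5 CPM in the 22 °C library of replicate 1 and 0.113 and 0.314 CPM in the other 2. Its call ended without that library and without each single library at 29 °C. Other genes overlap SAC51 over 100% of its length.

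The same comparison in WT called 1767 genes higher (8.08%) and 1620 lower (7.41%). Of these 1424 also rose and 1254 also fell in the libraries labelled rve5-2, while 2 were called in opposite directions. Of the 2678 genes called in both in the same direction, 1734 had the larger change in the libraries labelled rve5-2. The difference of the 2 responses was called for 0 genes in edgeR (smallest adjusted p = 0.228), with 1070 at an unadjusted p under 0.05 (4.89%), and for 44 in DESeq2. No response is therefore shown to differ by edgeR, whose median SE was 0.20 for a difference and 0.14 for a single response. Without WT replicate 1 at 29 °C, whose root score of -0.43 was the lowest of all libraries, 2148 genes had an unadjusted p under 0.05 and 0 were called.

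**Figure D4:**
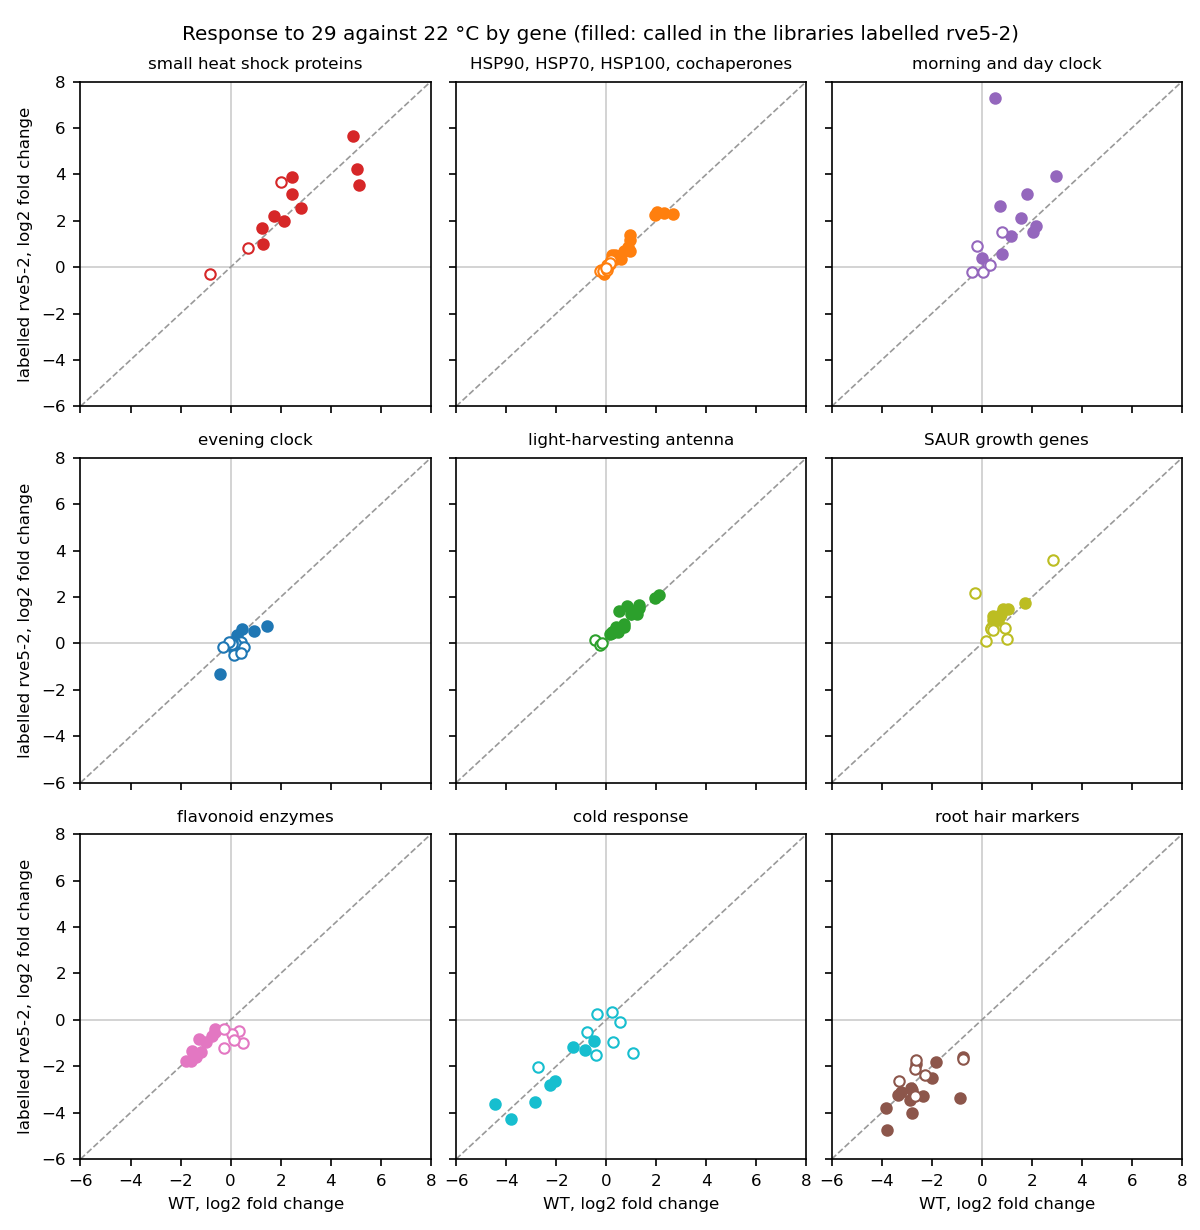
Log2 fold change at 29 °C over 22 °C in the libraries labelled rve5-2 (vertical) against that in WT (horizontal) for the tested members of 9 lists. Filled points are called in the libraries labelled rve5-2, and the dashed line marks equal responses. Heat shock and antenna genes lie near the line, while most evening clock genes lie below it.

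Of the lists examined, that of the evening genes had the largest share with an unadjusted p under 0.05 for the difference. Of 20 members 12 had one, against 4.89% of all genes, and 11 to 12 whichever library was left out. None passed the adjustment over all genes. The lists were chosen with earlier results of these data known, and this one was singled out by its share. The count is therefore a description and not a test, and the fits with a library left out share the other libraries. TOC1 had 160, 155 and 151 CPM at 29 °C and 179, 172 and 160 CPM at 22 °C in the libraries labelled rve5-2. In WT it had 189, 161 and 173 CPM at 29 °C and 140, 132 and 128 CPM at 22 °C. The response was below that of WT by 0.52 on the log2 scale (95% interval of the difference -0.72 to -0.31, adjusted p = 0.398). For ELF4 the difference was -0.90 (-1.21 to -0.59, adjusted p = 0.398) and for COR27, a night repressor, -0.69 (-0.95 to -0.44, adjusted p = 0.398). For GI, which rose by 0.77 in the libraries labelled rve5-2 and by 1.44 in WT, the difference was -0.66 (-0.96 to -0.37) and was not called. The list's median was -0.09 in the libraries labelled rve5-2 and 0.26 in WT. The root score at 29 °C was 0.34, 0.22 and 1.05 in the libraries labelled rve5-2 and -0.43, 1.09 and 1.13 in WT, and its part in these differences was not tested.

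In the other lists a smaller share of members had an unadjusted p under 0.05 for the difference. The small heat shock list had a median of 2.53 in the libraries labelled rve5-2 and 2.13 in WT, and 7 of its members were called in both. The morning list had a median of 1.42 in the libraries labelled rve5-2 and of 0.76 in WT. In it 10 members, RVE5 among them, rose in the libraries labelled rve5-2 and 5 in WT. An unadjusted p under 0.05 for the difference was found for 6 of 16. PRR9 had a difference of 1.91 (0.38 to 3.43, adjusted p = 0.981) and PRR7 of -0.54 (-0.85 to -0.22, adjusted p = 0.847). The SAUR medians were 1.07 in the libraries labelled rve5-2 and 0.63 in WT, and the antenna medians 0.78 in the libraries labelled rve5-2 and 0.60 in WT. Flavonoid enzymes stood at -0.90 in the libraries labelled rve5-2 and -0.68 in WT, with the same number called, 11. Photosystem subunits had 20 members raised in the libraries labelled rve5-2 and 6 in WT. Their medians were 0.41 in the libraries labelled rve5-2 and 0.24 in WT, and 2 of 30 members were found with an unadjusted p under 0.05 for the difference. Without WT replicate 1 at 29 °C that number was 25 of 30, and at most 2 without any other single library.

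**Figure D5:**
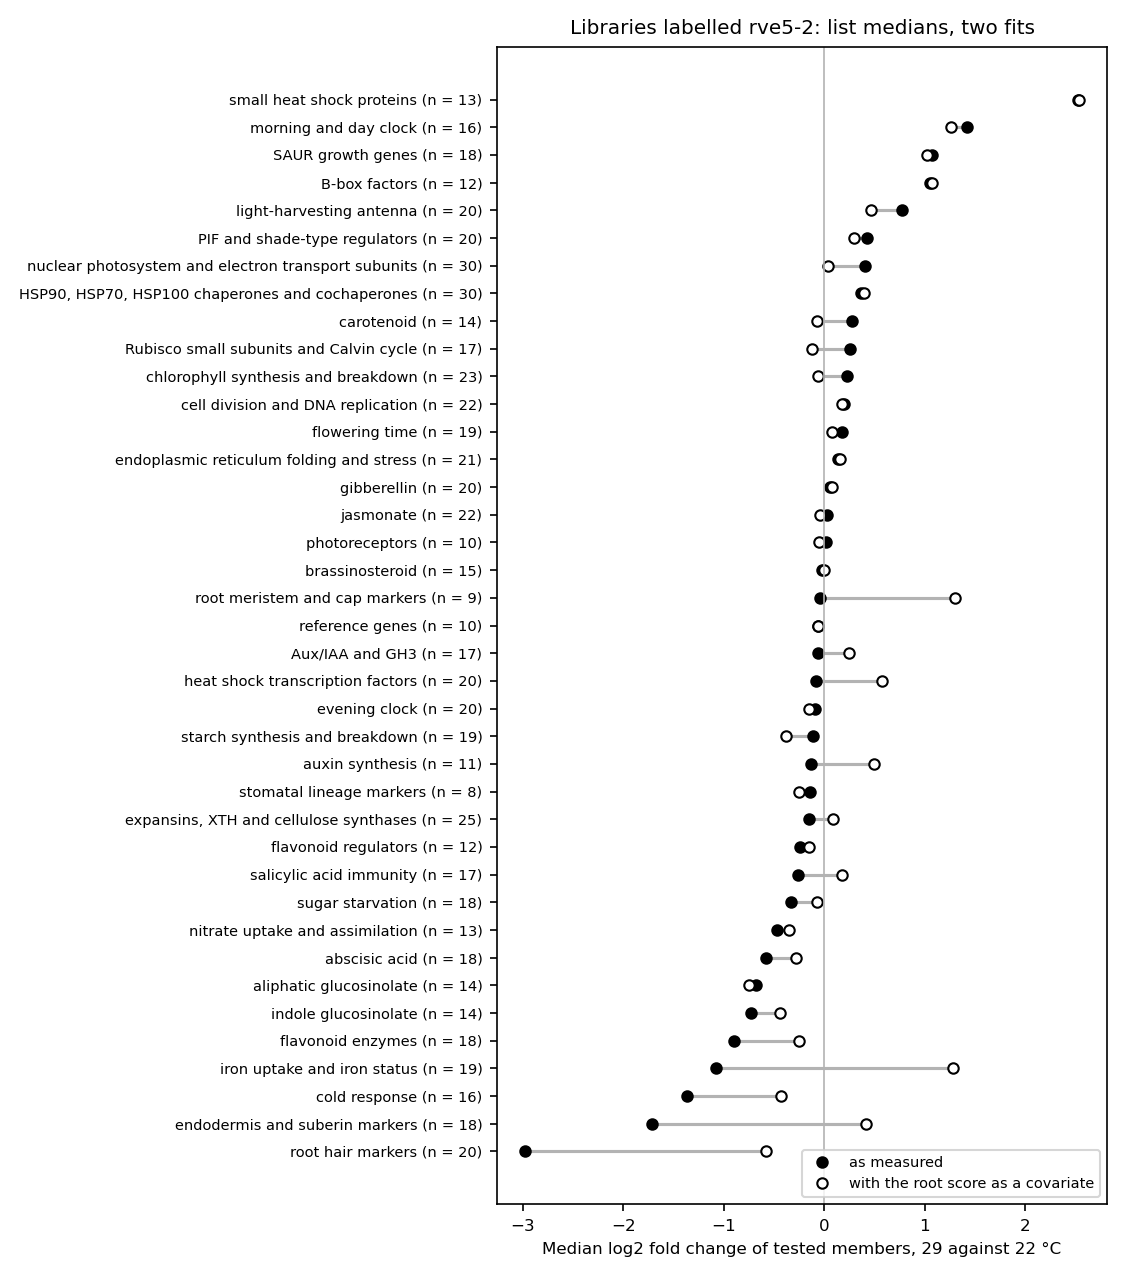
Median log2 fold change (29 °C over 22 °C, libraries labelled rve5-2) of the tested members of each list as measured (filled) and after the root score was added to the model (open). Medians of the small heat shock, morning clock, SAUR, B-box and aliphatic glucosinolate lists move little, while those of photosystem subunits, flavonoid enzymes, iron genes and the root lists, of which the score is made, move towards or past 0.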

How the data were processed

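RNA sequencing libraries of seedlings labelled rve5-2 and WT were compared, 3 for each genotype and temperature. The deposited table gives a whole-number count and an FPKM value (fragments per kilobase of gene, scaled to library size) for each gene and library. Per the submitters' processing notes, cutadapt 1.9, HISAT2 2.0.4, StringTie 1.3.4d and edgeR were used on build TAIR10. How reads were assigned to genes, copies and overlaps is not given in the sources used here. Counts were analysed as deposited. FPKM, as deposited by the authors, served for levels per length and, after a pseudocount of 1 or 0.1, in alternatives.

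With edgeR 4.0.16 (R 4.3.3) genes were filtered (filterByExpr, minimum count 10), libraries scaled by TMM, and 1 mean per group fitted to all 12 libraries in the quasi-likelihood model. The SE is the size of the fold change over the root of F, an approximation. Floors cover counting error only, while the intervals of differences come from the fit and take in the spread between libraries. These intervals rest on that approximate SE and a normal distribution, so with 3 libraries per group they may be too narrow. They are not adjusted for the number of genes. Alternatives used limma 3.58.1 and DESeq2 1.42.0. The fit was tested on simulated counts. Replicate libraries differed by more than counting noise (chi-square per degree of freedom of 6.98 or more). Positions are those of the table. Promoters are from RefSeq, and 9854 of 31912 matched loci have the same start and end there.

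The 40 lists hold 704 genes, of which 680 were tested. Members and lists were chosen with earlier results of these data known. Genes named are RVE5, CCA1, LHY, PIF4 and YUC8, the 12 largest rises and falls, and per list at most 4 genes of smallest adjusted p, plus at most 3 that moved against the list's majority. Other members were named for their role after their values were seen.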

Additional observations from a re-analysis of the deposited data

How the results depend on the processing

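Counts of genes called higher and lower in the libraries labelled rve5-2 stayed within 1.5 times the reported ones under other normalizations, filters, count units, FPKM, DESeq2, the 6 libraries alone (3143 and 3184) and the replicate block (2555 and 2533). With the root score they were 125 and 94, with 38 and 14 in WT and 35 list members called, against 290 reported. Leaving out single libraries gave 1876 to 2565 higher and 1669 to 2674 lower. In WT it gave 981 to 1727 higher and 766 to 1894 lower. The difference of the responses had 0 to 1 called, 44 in DESeq2 and 0 in the replicate block. Deviations of same-numbered libraries correlated at -0.016, 0.009 and 0.128 for the rve5-2 label, and at 0.159, -0.034 and 0.055 in WT. With 3 libraries per group these values cannot show whether the numbers pair samples. Quantile normalization gave 3315 higher and 2905 lower, and log2(FPKM + 0.1) 1921 and 3817 at a median of -0.102 over all genes. Of 196 named genes 172 were called, 144 of them whichever library was left out and 31 under every alternative. Many were named because they were called or had the smallest adjusted p of a list, so these counts do not describe all genes. Of all 5696 calls, 3490 to 4660 were shared when 1 library labelled rve5-2 was left out. Signs turned with the root score for AT2G47530 (0.91), TH7 (1.41), MYB12 (0.88), EDS5 (0.11), F6PH1 (0.24), PER64 (0.04), PHOT2 (-0.08), PHYE (-0.03), SMB (0.53), BRN1 (7.69), EM6 (3.21) and SESA4 (4.87). They turned for SCR on FPKM (-0.02 at both pseudocounts), and on leaving out single libraries for LHY (-1 to 0.18, turned without the 29 °C library of replicate 3) and SESA4 (-5.82 to 5.10, turned without the 22 °C library of replicate 2). The cause was not tested. Genes near 1 CPM rest on few fragments, and their fold changes depend on them.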
